A study of Mus musculus with 4 samples.

Results

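The genes examined are 41 genes of the cell cycle and mitosis, all of which the authors' gene table names, among 20909 named genes in all. They were picked by gene symbol as cyclins, cyclin-dependent kinases (CDKs), replication licensing genes and mitotic genes. Of the 41, 40 carry that symbol in the table, and Cdk1 is printed there under the older name Cdc2a and was matched by its accession. Liver RNA of 4 Wrn mutant mice was set against that of 4 wild-type mice, 1 of each per Agilent array with a dye for either genotype. All animals were C57Bl/6 males aged 3 months with no special treatment. The mutant RNA carried Cy3 in pairs 1 and 2 and Cy5 in pairs 3 and 4. Wrn encodes a RecQ DNA helicase that is lost in Werner syndrome, in which people age early. The nature of the Wrn allele is not stated in the labels.

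Cells divide by passing through G1, DNA synthesis (S phase), G2 and mitosis, and each step is driven by a cyclin bound to a CDK. D-type and E-type cyclins inactivate the retinoblastoma protein, which frees E2F factors to switch on the genes of DNA replication. Later genes, among them those of mitosis, are controlled through FOXM1 and the DREAM and MuvB complexes. Most hepatocytes of an adult liver rest outside the cycle and can re-enter it when tissue is lost, so transcripts of dividing cells are scarce in resting liver.

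Values are log2 ratios of mutant over wild type, so that 1 unit is a factor of 2 and negative values are lower in the mutant. That direction is likely rather than stated. The titles and the authors' table both name the mutant first, and the authors averaged the 4 arrays with 1 sign. Were the ratios wild type over mutant, each higher value here would be a lower one. The Wrn probe itself read 1.77, 0.91, 1.12 and 1.37 in pairs 1 to 4, higher in the mutant in each, and with the altered part of the gene unknown this checks neither labels nor direction. Pair 1 had 3547 missing values of 41174 probes, against 1070 to 1195 in the others. The 6 hepatocyte markers measured had average log2 intensities (A) from 9.07 to 15.8, all above the upper quartile of named probes, 8.38. Between arrays, the log2 ratios of 17686 named probes correlated at 0.0095 to 0.18, and those of the 37 cell cycle genes with 4 values at -0.24 to 0.40. For the 30 cell cycle genes with probes that were not dim, a term defined with the probe brightness, each of the 6 lay above 0, between 0.095 and 0.45. These are correlations across genes of arrays that share no animal, and genes are not independent replicates. The named probes here include dim ones, and no correlation is given for named probes that were not dim.

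Whether the transcripts of the cell cycle differed between the genotypes was asked gene by gene. Among genes whose probes were not dim, the means farthest from 0 were both lower in the mutant and belong to the steps before and during S phase. Ccne1, the cyclin that starts S phase, was 2.14-fold lower in the mutant, and Mcm6, a subunit of the replicative helicase, 1.86-fold lower, each in 4 of 4 pairs. All 6 subunits of that helicase had a negative mean. Genes of G2 and mitosis were centred near 0, with 11 of 15 means positive, and the means of the D-type cyclins and their kinases lay between -0.19 and 0.32.

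The adjusted test called no gene. With limma and a dye term, 0 of 41 genes passed an adjusted p of 0.05 (lowest adjusted p = 0.736), as did 0% of all 40238 probes tested. At an unadjusted p under 0.05 there were 6 of the 41 genes, or 14.6%, beside 6.64% of all probes. Of these 6, Ccne1, Mcm6, Cdc25a and Bub1 were lower, beside 3.19% of all probes, and Cdc6 and Ccne2 higher, beside 3.45%. Cdc25a was higher in 2 of its 3 pairs and Bub1 in 2 of 4. Without the dye term 0 of the 41 passed and 4 had an unadjusted p under 0.05 with limma, beside 5.79% of all probes. Those 4 were Ccne1, Mcm6, Cdc6 and Rrm1, so that Cdc25a, Bub1 and Ccne2 dropped out. With a prior variance that followed probe intensity 0 of the 41 passed as well, where 0.206% of named probes did, and the lowest limma adjusted p was 0.1249, for Mcm6. An exact two-sided sign-flip test over 4 pairs cannot reach 0.05 for any single gene. The standard errors of the fit ran from 0.15 to 0.61 with a median of 0.22.

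Directions were counted over the pairs. Of the 37 genes with 4 values, 6 were lower on all 4 arrays, which is 16.2% beside 10.1% of named probes, and 0 were higher on all 4, beside 10.9%. The 6 were Ccne1, Cdkn1b, Mcm2, Mcm6, Mcm7 and Pcna. Without pair 4, 6 genes were lower and 7 higher on the 3 arrays left, so the imbalance was not seen without that pair. Ccne2, which has no value in pair 4, is among the 7. The share of named probes over those 3 arrays is not given here. With the sign of the Cy5 arrays turned, 0 were lower and 1 higher on all 4. Genes lower on all 4 must leave that count once the Cy5 arrays are turned. Turning them therefore cannot show what the imbalance rests on, though the counts hold only for the sign as read here. Over all 41, 22 means were below 0, or 53.7% beside 46.5% of named probes, and the median log2 ratio was -0.08 beside 0.04 for all named probes. Among the 30 genes with probes that were not dim the median was 0.015, with 15 means below and 15 above 0. In pairs 1 to 4 the median over the genes was -0.0034, 0.028, -0.074 and -0.24, so pair 4 was the lowest.

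**Figure D1:**
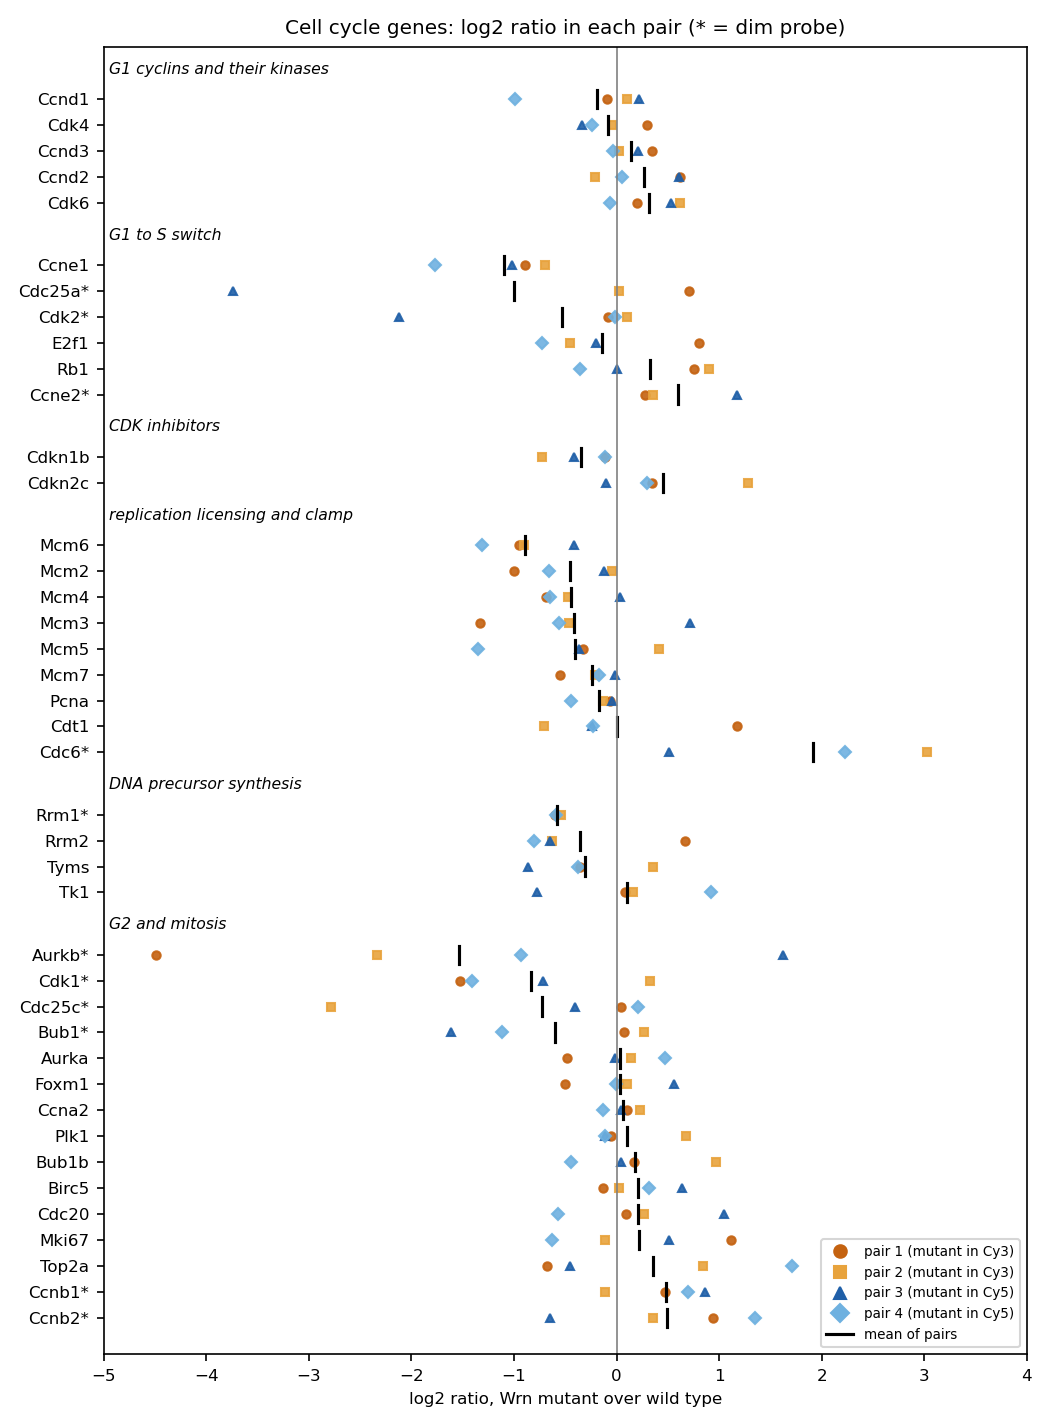
Log2 ratio of Wrn mutant over wild type (horizontal axis) for each of the 41 cell cycle genes, by role, with 1 symbol per pair and a bar at the mean over pairs. An asterisk marks a dim probe, and the 6 genes lower on all 4 arrays include Ccne1, Mcm6, Mcm2 and Mcm7.

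The spread between pairs was wider for dim probes. A probe was called dim when its A lay below the lower quartile of named probes, 5.55. That held for 11 of the 41 genes, or 26.8%, beside 25% of named probes by construction. They were Aurkb, Cdc25a, Bub1, Cdc6, Cdc25c, Rrm1, Ccne2, Cdk2, Ccnb2, Cdk1 and Ccnb1. The median standard deviation over pairs was 0.91 among them and 0.46 among the other 30 genes, against 0.52 for all named probes. Of the 11 genes with a mean beyond 0.5 in either direction, 9 were dim. Mcm6 and Ccne1 were not, but Ccne1 lay only just above the limit, at an A of 5.66. For comparison, 10.8% of named probes had a mean under -0.5 and 14.6% a mean over 0.5. All 4 genes with only 3 values (Cdc25a, Ccne2, Cdc6 and Rrm1) were dim.

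**Figure D2:**
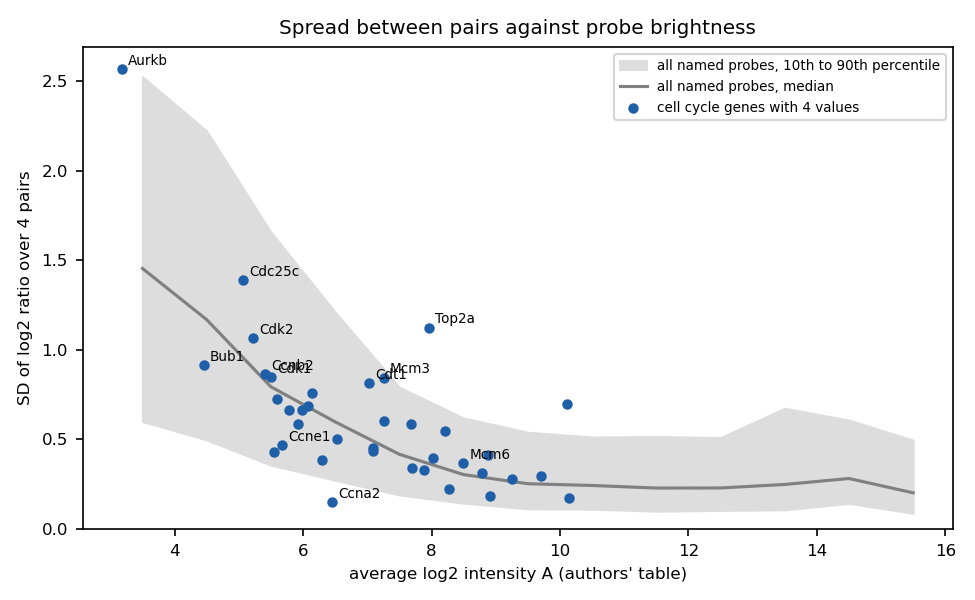
Standard deviation of the log2 ratio over 4 pairs (vertical axis) against the average log2 intensity A from the authors' table (horizontal axis). Points are the 37 cell cycle genes with 4 values, the grey band spans the 10th to 90th percentile and the line is the median of named probes per unit of A. Spread grows toward the dim end, where Aurkb stands, while Top2a lies above the band at higher A, as does Tk1 farther right, and Ccna2 lies below it.

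The D-type cyclins and their kinases, which carry mitogen signals into the cycle, numbered 5 genes, and the median of their log2 ratios was 0.14. None was dim, and none had the same sign in all pairs. Ccnd1, the cyclin most tied to the regrowth of liver, read -0.09, 0.10, 0.22 and -0.99 in pairs 1 to 4, with a mean of -0.19 ± 0.55 (SD, n = 4, limma adjusted p = 0.864). Pair 4 alone was low, and without it the value was 0.11. Ccnd2 and Ccnd3 had means of 0.26 and 0.14, and their partner kinases Cdk4 and Cdk6 had -0.08 and 0.32. Ccnd3 was the steadiest of these, between -0.03 and 0.35.

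At the switch from G1 to S phase, Ccne1 stood apart from the genes around it. Its log2 ratios were -0.90, -0.70, -1.02 and -1.77, with a mean of -1.10 ± 0.47 (SD, n = 4) and a standard error of 0.20 in the fit. All pairs were low, pair 4 the most, and the arrays with Cy3 on the mutant were both above those with Cy5. The limma fit gave an unadjusted p of 0.0053 and an adjusted p of 0.736, the latter from 0.337 to 0.824 over the alternatives. Leaving out 1 pair at a time gave -1.28 to -0.91, and turning the sign of the Cy5 arrays gave 0.30. Its probe was brighter than 28.6% of named probes.

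Ccne2, the second E-type cyclin, pointed the other way. It read 0.28, 0.35 and 1.17 in pairs 1 to 3 and had no value in pair 4, with a mean of 0.60 ± 0.50 (SD, n = 3) and a fitted value of 0.75 that weights pair 3 as much as pairs 1 and 2 together. Cdk2, the kinase of both, was at -0.09, 0.10, -2.13 and -0.02, so that its mean of -0.53 came from pair 3. Cdc25a, the phosphatase that activates it, read 0.70, 0.03 and -3.74 in pairs 1 to 3, and likewise owed its mean of -1.004 ± 2.40 (SD, n = 3) to pair 3. In the fit, which weights that pair double and has no value from pair 4, the value was -1.69 (limma adjusted p = 0.736). E2f1, the activating transcription factor, had a mean of -0.14 ± 0.67 (SD, n = 4) and Rb1, the retinoblastoma gene that holds it back, 0.33 ± 0.60. Rb1 was at 0.76 and 0.90 with the mutant in Cy3 and at 0.0094 and -0.36 with it in Cy5.

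The inhibitors split as well. Cdkn1b, which encodes p27, a brake on cyclin E and cyclin A kinases, read -0.11, -0.73, -0.42 and -0.11 and was lower in 4 of 4 pairs, with a mean of -0.34 ± 0.30 (SD, n = 4, limma adjusted p = 0.746). Cdkn2c, which encodes p18, an inhibitor of CDK4 and CDK6, read 0.34, 1.28, -0.10 and 0.30. It was higher in 3 of 4 pairs, with a mean of 0.45 ± 0.59 (SD, n = 4, limma adjusted p = 0.743), and pair 2 was far above the others.

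Replication licensing genes had the lowest median of the 6 role groups, though not under every alternative. Licensing loads the MCM helicase, a ring of the 6 subunits Mcm2 to Mcm7, onto origins of replication with the help of Cdc6 and Cdt1. The group of 9, which includes the sliding clamp gene Pcna, had a median log2 ratio of -0.41, with 8 of 9 means below 0, Cdt1 by less than 0.01, and 4 genes lower on all 4 arrays. Its median was -0.62, -0.21, -0.04 and -0.56 in pairs 1 to 4, lowest in pairs 1 and 4 and nearest 0 in pair 3. Leaving out 1 pair at a time, with the dye term kept, gave medians from -0.60 to -0.18. The G1 to S switch was lower without pair 1 (-0.47 against -0.22), without pair 4 (-0.46 against -0.18) and by the authors' deposited table (-0.51 against -0.41). Precursor synthesis was lower as well without pair 4, at -0.33. Leaving out a pair also drops genes left with fewer than 3 values. These were Ccne2, Cdc25a and Rrm1 without pair 1, and Cdc6 and Rrm1 without pair 4. With the sign of the Cy5 arrays turned the licensing median was -0.029, beside -0.031 for G2 and mitosis.

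Within the ring, Mcm6 read -0.95, -0.90, -0.42 and -1.31, with a mean of -0.90 ± 0.37 (SD, n = 4, limma unadjusted p = 0.014, adjusted p = 0.736). All pairs were low, and its probe was brighter than 76.1% of named probes. Over the alternatives its limma adjusted p ran from 0.1249 to 0.977, and with the sign of the Cy5 arrays turned its value was -0.029. Mcm2 read -1.003, -0.05, -0.12 and -0.66, low in pairs 1 and 4 and close to 0 in the others, with a mean of -0.46 ± 0.45 (SD, n = 4, limma adjusted p = 0.744). Mcm7 read -0.55, -0.21, -0.02 and -0.18, with a mean of -0.24 ± 0.22 (SD, n = 4, limma adjusted p = 0.772).

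The remaining subunits were lower in 3 of 4 pairs each. Mcm4 had a mean of -0.44 ± 0.33 and read 0.03 in pair 3. Mcm3 had a mean of -0.41 ± 0.85, from -1.33 in pair 1 to 0.71 in pair 3. Mcm5 had a mean of -0.41 ± 0.72 (SD, n = 4), from -1.35 in pair 4 to 0.41 in pair 2. The 6 subunits together had a median of -0.43, with -0.82, -0.33, -0.07 and -0.65 in pairs 1 to 4.

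Cdt1 and Cdc6, the loaders, had wide spreads. Cdt1 read 1.18, -0.71, -0.24 and -0.23, lower in 3 of 4 pairs, which cancelled to a mean within 0.01 of 0, with an SD of 0.82 (n = 4). Cdc6 read 3.03, 0.51 and 2.23 in pairs 2 to 4 and had no value in pair 1, with a mean of 1.92 ± 1.29 (SD, n = 3) and a fitted value of 2.20 (limma adjusted p = 0.736). It was the highest of the 41 genes, but its probe was dimmer than all but 5.84% of named probes. Pcna read -0.07, -0.13, -0.04 and -0.45, lower in every pair by a small margin, with a mean of -0.17 ± 0.19 (SD, n = 4, limma adjusted p = 0.814).

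**Figure D3:**
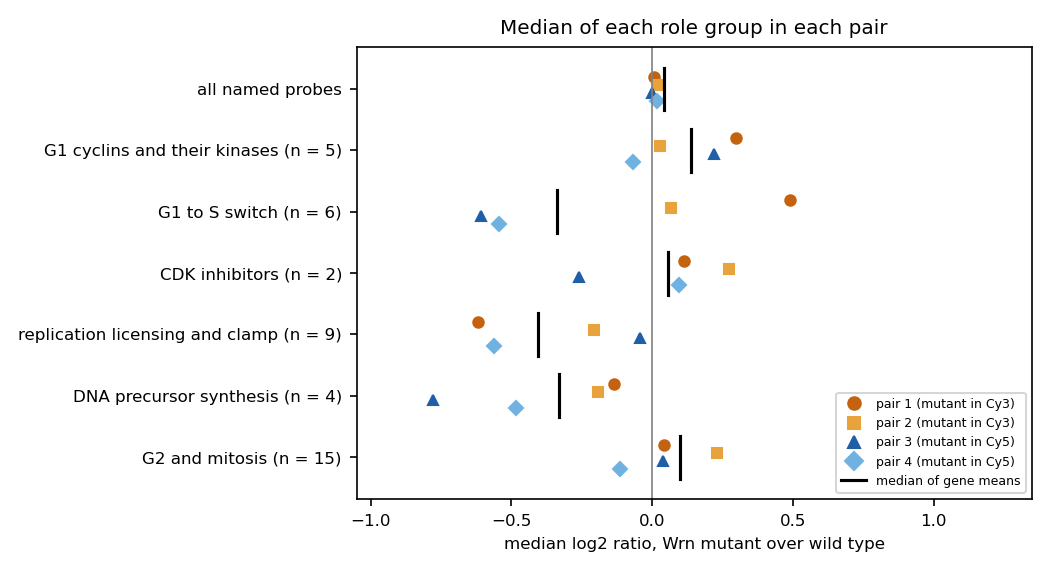
Median log2 ratio of Wrn mutant over wild type (horizontal axis) of all named probes and of each role group, with 1 symbol per pair and a bar at the median of the gene means. The licensing group lies below 0 in each pair, from -0.62 to -0.04, and G2 and mitosis genes lie between -0.11 and 0.23.

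Because the MCM genes lay on the same side, their promoters are shown. The windows are the 300 bases from 250 before to 50 after the annotated start, from RefSeq on build GRCm38.p6, printed along the gene's strand. Windows were matched by symbol for 32 of the 41 genes, taking the first listed where there are several. The chromosome of Cdc25c was left out of this matching but kept in the shares over all genes. The mitotic shares are therefore without Cdc25c, whatever letters its promoter holds. No window was matched for Ccna2, Foxm1 and Aurkb among the mitotic genes, nor for Mcm4. Capitals mark letters known from E2F sites (TTTCCCGC, TTTGGCGC or GGCGGGAA) or from the cell cycle homology region, CHR (TTTGAA), each sought on both strands. GGCGGGAA and the reverse of TTTCCCGC overlap in Mcm3 and form 1 run of capitals there. Mcm6 lies on the minus strand at chr1:128359656-128359955 and Mcm3 on the minus strand at chr1:20820263-20820562. Mcm5 lies on the plus strand at chr8:75109259-75109558, Mcm7 on the minus strand at chr5:138171834-138172133 and Mcm2 on the minus strand at chr6:88898731-88899030.
Mcm6: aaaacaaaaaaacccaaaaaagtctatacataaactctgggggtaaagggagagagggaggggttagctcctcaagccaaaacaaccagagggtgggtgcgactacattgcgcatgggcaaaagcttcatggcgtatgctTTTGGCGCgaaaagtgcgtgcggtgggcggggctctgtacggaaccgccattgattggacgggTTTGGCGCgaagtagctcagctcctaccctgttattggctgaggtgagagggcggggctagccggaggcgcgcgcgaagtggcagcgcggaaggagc
Mcm3: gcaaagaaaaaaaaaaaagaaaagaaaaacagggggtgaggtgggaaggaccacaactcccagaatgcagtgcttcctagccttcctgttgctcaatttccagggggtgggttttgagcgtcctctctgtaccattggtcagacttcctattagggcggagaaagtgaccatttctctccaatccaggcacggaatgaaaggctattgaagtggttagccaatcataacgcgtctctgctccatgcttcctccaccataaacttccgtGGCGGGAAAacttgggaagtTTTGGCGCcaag
Mcm5: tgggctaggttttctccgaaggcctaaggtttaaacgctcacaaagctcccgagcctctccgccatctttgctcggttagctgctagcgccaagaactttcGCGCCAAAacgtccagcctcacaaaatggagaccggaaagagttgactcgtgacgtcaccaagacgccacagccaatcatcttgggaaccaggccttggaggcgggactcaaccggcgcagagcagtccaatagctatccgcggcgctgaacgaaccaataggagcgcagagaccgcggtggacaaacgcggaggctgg
Mcm7: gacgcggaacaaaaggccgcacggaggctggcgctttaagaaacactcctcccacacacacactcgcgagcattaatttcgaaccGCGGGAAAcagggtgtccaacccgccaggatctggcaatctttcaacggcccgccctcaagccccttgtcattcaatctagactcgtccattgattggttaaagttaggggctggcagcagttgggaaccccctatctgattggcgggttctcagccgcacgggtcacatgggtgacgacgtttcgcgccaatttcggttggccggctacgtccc
Mcm2: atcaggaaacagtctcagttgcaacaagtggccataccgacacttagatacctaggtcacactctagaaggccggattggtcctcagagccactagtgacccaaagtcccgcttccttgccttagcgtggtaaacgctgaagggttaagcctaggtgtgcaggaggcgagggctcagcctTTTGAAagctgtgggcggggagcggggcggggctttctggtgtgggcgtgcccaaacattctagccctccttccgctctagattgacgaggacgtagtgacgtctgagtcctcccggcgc

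E2F letters stood in 4 of these 5 windows and in 6 of 8 of the licensing group, beside 3.31% of the first windows of 27025 genes. Mcm2 held CHR letters instead. Mitotic genes differed in this respect, with E2F letters in 0 of 11 windows and CHR letters in 8 of 11, or 72.7%, beside 18.1% of all genes. The CCAAT box, sought as CCAAT on both strands, stood in 6 of 8 licensing windows and 10 of 11 mitotic ones, beside 37.9% of all. A match is a description of letters and not a binding site. Ccne1 held none of these letters in its window. E2F letters also stood in the windows of Cdc6, Cdt1, Cdk2, Cdc25a and Rrm1, and Pcna held none of them. Whether the letters go with the ratios was not tested. To set the mitotic promoters beside the MCM genes, Cdk1 (minus strand, chr10:69352863-69353162) and Ccnb2 (minus strand, chr9:70421505-70421804) are printed with the same capitals.
Cdk1: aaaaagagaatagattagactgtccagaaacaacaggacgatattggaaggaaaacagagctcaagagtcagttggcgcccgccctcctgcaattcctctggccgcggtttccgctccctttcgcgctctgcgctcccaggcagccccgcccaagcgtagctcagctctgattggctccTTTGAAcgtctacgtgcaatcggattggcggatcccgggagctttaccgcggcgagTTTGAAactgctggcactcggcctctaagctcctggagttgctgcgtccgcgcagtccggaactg
Ccnb2: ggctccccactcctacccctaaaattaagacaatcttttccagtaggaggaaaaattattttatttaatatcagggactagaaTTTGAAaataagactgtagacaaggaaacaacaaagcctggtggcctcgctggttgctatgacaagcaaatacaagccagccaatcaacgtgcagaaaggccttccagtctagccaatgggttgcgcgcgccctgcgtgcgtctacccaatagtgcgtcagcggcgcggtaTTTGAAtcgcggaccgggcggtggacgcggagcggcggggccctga

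**Figure D4:**
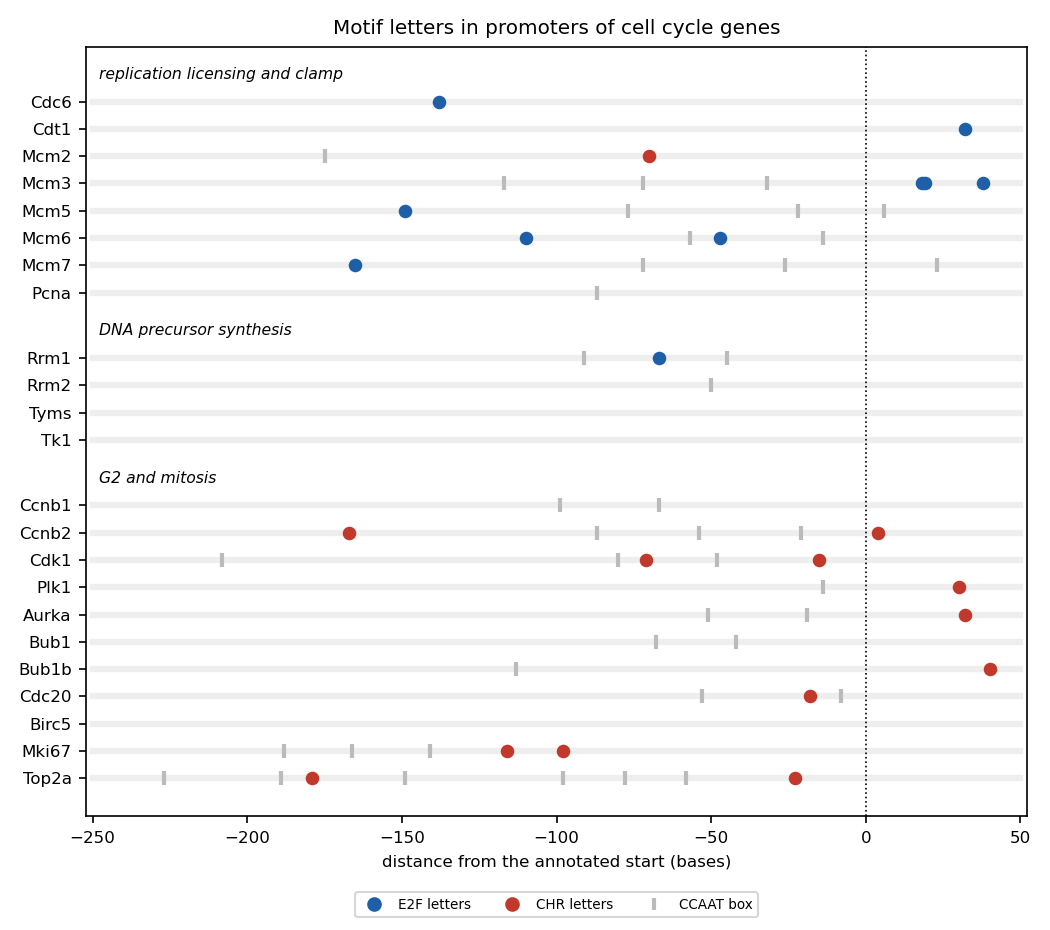
Position of E2F, CHR and CCAAT letters on either strand relative to the annotated start (horizontal axis, in bases) in promoter windows of licensing, DNA precursor and mitotic genes. Each point or tick is the first base of a match. Blue E2F points fall in 6 of 8 licensing windows and red CHR points in 8 of 11 mitotic windows.

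Enzymes that supply DNA precursors numbered 4 genes, and the median of their log2 ratios was -0.33. Without pair 2 it was -0.033, but Rrm1 then has fewer than 3 values and drops out. Rrm1, the large subunit of ribonucleotide reductase, read -0.60, -0.55 and -0.59 in pairs 1, 2 and 4, the narrowest spread of all the genes, with no value in pair 3 and a dim probe. Rrm2, the small subunit that limits the enzyme in S phase, read 0.66 in pair 1 and -0.63, -0.65 and -0.81 in the rest. Tyms, thymidylate synthase, had a mean of -0.31 ± 0.50 (SD, n = 4). Tk1, thymidine kinase of the cytosol, read 0.08, 0.16, -0.78 and 0.93, with pairs 3 and 4 of the same dye orientation at opposite ends, and a mean of 0.10 ± 0.70 (SD, n = 4, limma adjusted p = 0.95).

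G2 and mitosis genes showed no common shift. Their 15 means had a median of 0.10, 0 were higher or lower on all 4 arrays, and the group's median in pairs 1 to 4 was 0.04, 0.23, 0.04 and -0.11. Mki67, the standard marker of dividing cells, read 1.12, -0.11, 0.51 and -0.63, with a mean of 0.22 ± 0.76 (SD, n = 4, limma adjusted p = 0.877). Its sign was split 2 to 2 and turned without pair 1 or pair 3. Top2a, the topoisomerase that untangles chromosomes, read -0.68, 0.84, -0.45 and 1.71, with a mean of 0.36 ± 1.12 (SD, n = 4, limma adjusted p = 0.864). Pairs 2 and 4 were high and pairs 1 and 3 low, on both sides of the dye swap, and Mki67 and Top2a did not order the pairs alike.

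Cdk1, the kinase of mitosis, read -1.52, 0.32, -0.72 and -1.41, lower in 3 of 4 pairs, with a mean of -0.83 ± 0.85 (SD, n = 4, limma adjusted p = 0.736) from a dim probe. Its cyclins pointed up, with Ccnb1 at 0.48 ± 0.43 and Ccnb2 at 0.50 ± 0.87 (SD, n = 4), both dim and each higher in 3 of 4 pairs. Ccna2, the cyclin of S phase and G2, was close to 0 throughout, between -0.13 and 0.23. Its SD of 0.15 was the smallest among the genes with 4 values, below the 10th percentile of probes of like brightness.

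The regulators of entry into mitosis, Foxm1, Plk1 and Aurka, had means of 0.04, 0.10 and 0.03. Foxm1 switches on mitotic genes, and the kinases Plk1 and Aurka act at centrosomes and the spindle. Cdc25c, the phosphatase that activates Cdk1, had a mean of -0.73 ± 1.39 (SD, n = 4), of which pair 2 at -2.78 made the most. Aurkb, the kinase of the chromosomal passenger complex, read -4.49, -2.34, 1.63 and -0.93, with a mean of -1.53 ± 2.57 (SD, n = 4, limma adjusted p = 0.736). That was the lowest mean and the widest range of the 41 genes, from the dimmest of their probes, brighter than 0.053% of named probes. Birc5, also of the passenger complex, was at 0.21 ± 0.34.

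Among checkpoint genes, Bub1 had a mean of -0.60 ± 0.91 and Bub1b 0.18 ± 0.59 (SD, n = 4). Bub1 read 0.07 and 0.27 with the mutant in Cy3 and -1.62 and -1.11 with it in Cy5, from a dim probe. Cdc20, which activates the anaphase-promoting complex once the checkpoint is met, had a mean of 0.21 ± 0.67 (SD, n = 4).

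Values were also compared between the dye orientations. In 11 of the 37 genes with 4 values the Cy3 arrays of the mutant were both above its Cy5 arrays, which is 29.7% beside 19.3% of named probes, and in 4 the order was the opposite, 10.8% beside 19.6%. Among the 11 were Ccne1, Mcm5, Rrm2, Tyms, Rb1 and Cdkn2c, while Mcm6 and Mcm2 overlapped between orientations. The dye coefficient passed in 0 of the 41 genes with limma (lowest adjusted p = 0.741) and in 0% of all probes. Different animals were used in each orientation, so labelling and animals cannot be told apart.

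Other genes of the pathway were read from 6 lists, with 109 of 112 genes found, 106 tested and 0 past an adjusted p of 0.05 with limma (lowest adjusted p = 0.736). At an unadjusted p under 0.05 there were 14 of the 106, beside 6.64% of all probes, 5 lower and 9 higher. Of 97 with 4 values, 13 were lower on all arrays (13.4% beside 10.1% of named probes) and 15 higher (15.5% beside 10.9%). Origin and replication fork genes had a median of -0.16 over 29 tested genes, with 20 of the 30 found below 0. In that list, though, Orc5, an origin recognition subunit, read 2.11, 1.31, 0.60 and 0.59, and Mcm10, which helps to activate the loaded helicase, 0.77, 0.72, 0.40 and 1.71. Both were higher in every pair, at means of 1.15 ± 0.72 and 0.90 ± 0.57 (SD, n = 4).

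Chek1, the checkpoint kinase that guards replication forks, was lower in every pair, at -1.20, -0.45, -0.91 and -1.07 and a mean of -0.91 ± 0.33 (SD, n = 4), while Cdkn1c, which encodes the inhibitor p57, was higher in every pair at 0.56 ± 0.39. In the E2F and DREAM list, with a median of -0.14 over 16 genes, E2f7, a repressor of E2F targets, read 0.79, 0.54, 0.90 and 1.11, a mean of 0.83 ± 0.24 from a dim probe. Tfdp1, the partner that E2F factors need to bind DNA, was lower in every pair at -0.42 ± 0.24 (SD, n = 4).

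The spindle, condensin and cohesin, and anaphase-promoting complex lists had medians of 0.010, 0.022 and -0.04. Kif11, a spindle motor, and Ect2, which starts cytokinesis, were higher in every pair at 0.76 ± 0.37 and 0.57 ± 0.29 (SD, n = 4). Ncapg, a condensin subunit, was lower in every pair at -0.66 ± 0.20, and Espl1, the separase that cuts cohesin, had 0.69 ± 1.29 with both Cy3 arrays above both Cy5 arrays. Anapc1 and Anapc10, subunits of the complex, had means of 0.47 ± 0.24 and 0.43 ± 0.49 (SD, n = 4). Unadjusted p-values of the 12 genes named from these lists ran from 0.0047 to 0.101, and each had an adjusted p of 0.736 with limma.

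**Figure D5:**
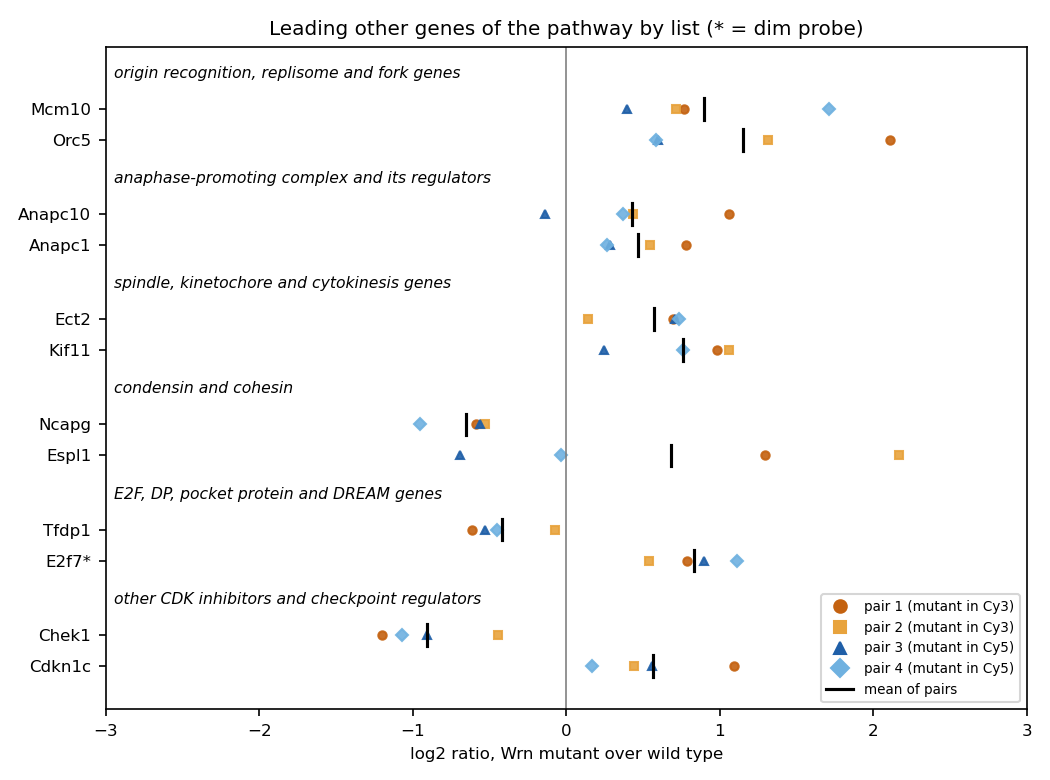
Log2 ratio of Wrn mutant over wild type (horizontal axis) of the 2 genes with the smallest unadjusted p in each of 6 lists of other cell cycle genes, with 1 symbol per pair and a bar at the mean. Chek1, Ncapg and Tfdp1 lie below 0 in every pair, and Orc5, Mcm10, Anapc1, Kif11, Ect2, E2f7 and Cdkn1c above 0.

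In whole liver, fewer cells of a type and less RNA per cell cannot be told apart. Macrophage and Kupffer cell markers had positive means in 10 of 10 genes, from 0.24 to 1.23, none of them dim, with medians of 0.78, 1.07, -0.20 and 0.83 in pairs 1 to 4. Cholangiocyte markers had negative means in 5 of 6 genes, from -1.12 to 0.25, with pair medians of -0.56, -0.65, -0.39 and -0.33. Hepatocyte markers had a median of -0.13, with pair medians of -0.04, 0.09, -0.27 and 0.02. Median log2 ratios of the other lists were 0.48 for B cells, 0.22 for T cells, 0.24 for neutrophils, 0.39 for erythroid precursors, 0.18 for sinusoidal endothelium and -0.19 for stellate cells. Of these markers, 3 of 5 for neutrophils and 2 of 6 for T cells were dim. So was 1 each for B cells, sinusoidal endothelium and stellate cells. The part of all these cell types in the values of the MCM genes and Ccne1 was not tested.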

How the data were processed

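For each array the authors deposited a log2 ratio per probe. Their gene table holds, per the file headers, a log2 fold change, an unadjusted p-value, an average log2 intensity (A) and a name. Limma is the tool that the submitters' processing notes list. Not given in the sources used here are background correction, normalization, filters and the choice of a probe for each gene. Every probe with at least 3 values was fitted in R 4.3.3 with limma 3.58.1. Genotype and dye orientation were the terms, leaving 2 residual degrees of freedom, and p-values were adjusted by Benjamini-Hochberg across 40238 probes with a threshold of 0.05. The fit was tested on simulated data. Means ± SD are over pairs. The authors' fold changes and p-values served only as an alternative.

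The genes were listed by name and function, but they and the lists, tests and alternatives were chosen with earlier results of these data known. Genes described in full were those with 1 direction on all 4 arrays, the 3 with the smallest unadjusted p, Ccnd1, Mki67, Top2a, Cdk1, Pcna and Cdkn1b, and the widest range per role group. From each other list the 2 with the smallest unadjusted p among those with 4 values were named. Per the labels the livers are biological replicates. The number of arrays limits the precision.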

Additional observations from a re-analysis of the deposited data

Results flagged for a closer look

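A single pair stood far from the rest in 4 of 45 results, and about 2.25 would do so by chance. Cdk2 was at -2.13 in pair 3, against -0.09 to 0.10 in the others, from a dim probe. Rrm2 was at 0.66 in pair 1, against -0.81 to -0.63. Plk1 was at 0.67 in pair 2, against -0.11 to -0.05. Pair 1 had 3547 missing values, against 1070 to 1195.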

How the results depend on the processing

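None of the 41 genes passed the threshold under any of 16 alternatives, and the smallest adjusted p of a named gene was 0.1249 with limma. Of 226 values of the 15 genes described in full, 214 kept their direction. Of 119 medians, 113 moved by less than the spread of the pair medians. For a gene with 4 values, dropping the dye term or changing only the test or the probes fitted leaves the value as it was. Part of both counts was therefore fixed in advance. Turning the sign of the arrays with the mutant in Cy5, an alternative reading of the dye swap, gave medians of 0.0903 for all 41 genes, 0.41 for the G1 to S switch, -0.029 for licensing and 0.17 for precursor synthesis. It also gave 0 genes lower and 1 higher on all arrays, and reversed Ccnd1 (0.19), Ccne1 (0.30), Cdc25a (2.05), Cdk1 (0.23), Pcna (0.0732) and Top2a (-0.28), while Mcm6 came to -0.029. Among probes with A above the median, 2 genes had an unadjusted p under 0.05 and the G1 to S switch, left with Rb1 alone, was at 0.33. The unmoderated test gave 3 such genes. Shares over all probes are not given for these settings, for the turned arrays or for the arrays with a pair left out. Those counts are therefore without a background. Leaving out 1 pair gave 6 to 11 genes lower and 2 to 7 higher on all 3 arrays left, 7 of them without pair 4, and medians of -0.33 to -0.033 for precursor synthesis. It reversed Ccnd1 (-0.49 to 0.11), Mki67 (-0.085 to 0.53), Tk1 (-0.33 to 0.52) and Top2a (-0.18 to 0.90). In these fits the lone pair of an orientation counts as much as both others. Genes left with fewer than 3 values drop out of the medians, as Rrm1 does without pair 1, 2 or 4. The authors' deposited table differs from the mean of the arrays for 3 of the 41 genes, with -0.54 for Ccnd1, -0.48 for E2f1 and -0.22 for Pcna. The cause of these shifts was not tested. Each ratio compares the livers of 1 pair, so every fit here is paired already. Leaving out dim probes, chosen after seeing the data, moved no median of a role group by more than the spread of its pairs, but turned the median of all the genes from -0.08 to 0.015. The array files give no signal over background.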
